A study of Mus musculus with 8 samples.

Results

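The 33 genes described here encode the TGF-beta and activin pathway: ligands, the proteins that hold them latent or trap them, receptors, SMAD proteins, inhibitors of the signal and a matrix target. They are the rows of the deposited count table whose gene name is on a list of 33 pathway genes. The genes were listed by their role in the pathway, with earlier results of these data known. All 33 were found among the 55471 gene entries of the table, and all 33 were among the 22153 genes that passed the filter on low counts.

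The table comes from bulk RNA sequencing of cells sorted by fluorescence from the femurs of newborn mice, 3 to 5 days old. Sorting gave skeletal stem cells (SSC) and the population downstream of them, the bone, cartilage and stromal progenitors (BCSP). Both were taken from wild-type (WT) and Tet1 knockout (KO) mice. Every library, wild type included, carries the strain name B6;129S4-Tet1tm1.1Jae/J. Each of the 4 groups (WT SSC, KO SSC, WT BCSP and KO BCSP) has 2 libraries, titled round 1 and round 2, and these are called library 1 and library 2 of their group. The knockout is a germline allele named for the gene Tet1, whose product oxidises methylated cytosine in DNA. Whether both libraries of a group stem from the same animals, and which sex the pups had, is left unsaid by the labels, so p-values measure only the spread between these samples.

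As background, TGF-beta proteins are secreted bound to their own cleaved propeptide, which latent TGF-beta binding proteins anchor in the matrix, and they signal only after release. Released TGF-beta, or activin, brings together a type II and a type I receptor kinase, and the receptors phosphorylate SMAD2 and SMAD3, which enter the nucleus with SMAD4. SMAD7, the SMURF ubiquitin ligases and the corepressors SKI, SKIL, TGIF1 and TGIF2 restrain the signal, and several of these genes are themselves induced by it. In growing cartilage the pathway is known for supporting matrix production and for delaying the maturation of chondrocytes.

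TET1 acts on cytosines that are followed by guanine (CpG). The start regions of 4 members are shown with their CpG letters, and a link of these letters to any difference below was not tested. Inhba and Inhbb are shown as the ligand genes that differed most between rounds, and Ltbp2 and Tgfbi as the members with the lowest p-values for genotype in BCSP, in opposite directions. The letters are from RefSeq (GRCm38.p6), 5′ to 3′ on the strand of the gene, and stop before the first annotated base of the gene. Capitals mark each CpG.
Inhba, chr13:16011601-16011850, plus strand: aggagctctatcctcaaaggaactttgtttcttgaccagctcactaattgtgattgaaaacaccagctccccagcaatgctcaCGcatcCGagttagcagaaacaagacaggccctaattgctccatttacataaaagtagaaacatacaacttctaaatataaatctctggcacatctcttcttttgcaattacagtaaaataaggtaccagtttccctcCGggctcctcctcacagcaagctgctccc
Inhbb, chr1:119422249-119422498, minus strand: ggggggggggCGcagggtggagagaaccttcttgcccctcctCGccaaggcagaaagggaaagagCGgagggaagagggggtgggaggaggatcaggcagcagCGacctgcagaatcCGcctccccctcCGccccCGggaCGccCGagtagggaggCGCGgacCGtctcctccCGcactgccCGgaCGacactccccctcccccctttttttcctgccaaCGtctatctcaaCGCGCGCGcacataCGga
Tgfbi, chr13:56609336-56609522, plus strand: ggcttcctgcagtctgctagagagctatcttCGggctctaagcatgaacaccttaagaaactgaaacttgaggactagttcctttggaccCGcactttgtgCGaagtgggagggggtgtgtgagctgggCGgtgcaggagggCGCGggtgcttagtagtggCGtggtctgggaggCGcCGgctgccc
Ltbp2, chr12:84876533-84876741, minus strand: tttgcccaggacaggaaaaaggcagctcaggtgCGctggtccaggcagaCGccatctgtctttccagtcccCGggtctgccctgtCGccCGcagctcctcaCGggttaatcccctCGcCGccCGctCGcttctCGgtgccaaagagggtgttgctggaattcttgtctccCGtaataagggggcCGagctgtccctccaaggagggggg

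The 4 stretches differ in CpG content. Inhba holds 3 CpG in 250 bases and Inhbb 21 in the same length. Tgfbi holds 9 in 187 bases and Ltbp2 13 in 209 bases. Over all members with an entry, 31 start windows of 250 bases from 23 genes held 2 to 53 CpG with a median of 18, against a median of 6 over 32851 windows of all genes. Ski had the most, with 53, while Ltbp3 and Zfyve9 had 2, and of the several starts of Tgif1 the poorest also had 2. The letters CAGAC, or GTCTG when read on the other strand, are the sequence that SMAD3 and SMAD4 are known to bind. They occurred in 17 of the 31 windows (54.8%) and in 42.2% of all windows of that length. Tgfbi and Ltbp2 hold 2 matches each in the stretches printed, and Inhba and Inhbb hold 0. No methylation was measured here, and a match of letters is not a measured site.

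The libraries held 104782544 to 168004119 counts. At that depth 1 CPM (counts per 1000000 counts of a library, its total scaled by TMM factors) stands for more than 100 counts, and the least counted member in any library, Acvr2b, had 131. The 33 genes together took 0.384 to 0.516% of a library. Tet1 itself was counted at 15.6 and 19.6 CPM in WT SSC, 7.26 and 11.8 in KO SSC, 21.6 and 11.0 in WT BCSP and 10.8 and 12.0 in KO BCSP, so the BCSP groups overlap. Eng (endoglin, CD105), a TGF-beta coreceptor and the surface protein whose absence marks SSC in this sorting scheme, was at 2.53 to 3.89 CPM in SSC and 25.7 to 50.5 in BCSP. Other genes of the same list of 7 sort markers did not part the cell types. Cd200 was at 24.2 to 49.7 CPM in SSC and 28.6 to 67.2 in BCSP. Itgav was at 42.2 to 58.4 CPM in SSC and 34.0 to 69.5 in BCSP. A list of 8 chondrocyte genes summed to 283562 to 368104 CPM in every group. How far genes deviated in a library from their mean over all libraries was correlated with their exon length, most in WT BCSP library 2 (Spearman -0.495 across genes) and KO BCSP library 2 (0.355), against -0.244 to 0.223 in the other 6. Members are long genes, with a median exon length of 5625 bases against 4468 over genes of at least 1 CPM, so results in which those 2 libraries weighed heavily are also given without them.

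Per length of exon, the members covered a wide span. Levels between genes are compared only on this scale (CPM per kb of exon, mean of 8 libraries). Thbs1 stood at 348 and Tgfbi at 159, far above the third, Ski, at 43.0. Ltbp3 (35.1), Smad7 (32.1), Fkbp1a (27.1), Pmepa1 (26.3), Smad3 (21.4) and Skil (20.8) followed. At the low end were Inhbb (1.17), Fstl3 (0.833), Fst (0.617) and Acvr2b (0.351). The negative regulators Ski, Smad7, Pmepa1 and Skil were therefore at higher levels per length than any ligand or receptor of the list. The plot of level per length shows that most neighbours in this order overlap over the 8 libraries.

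**Figure D1:**
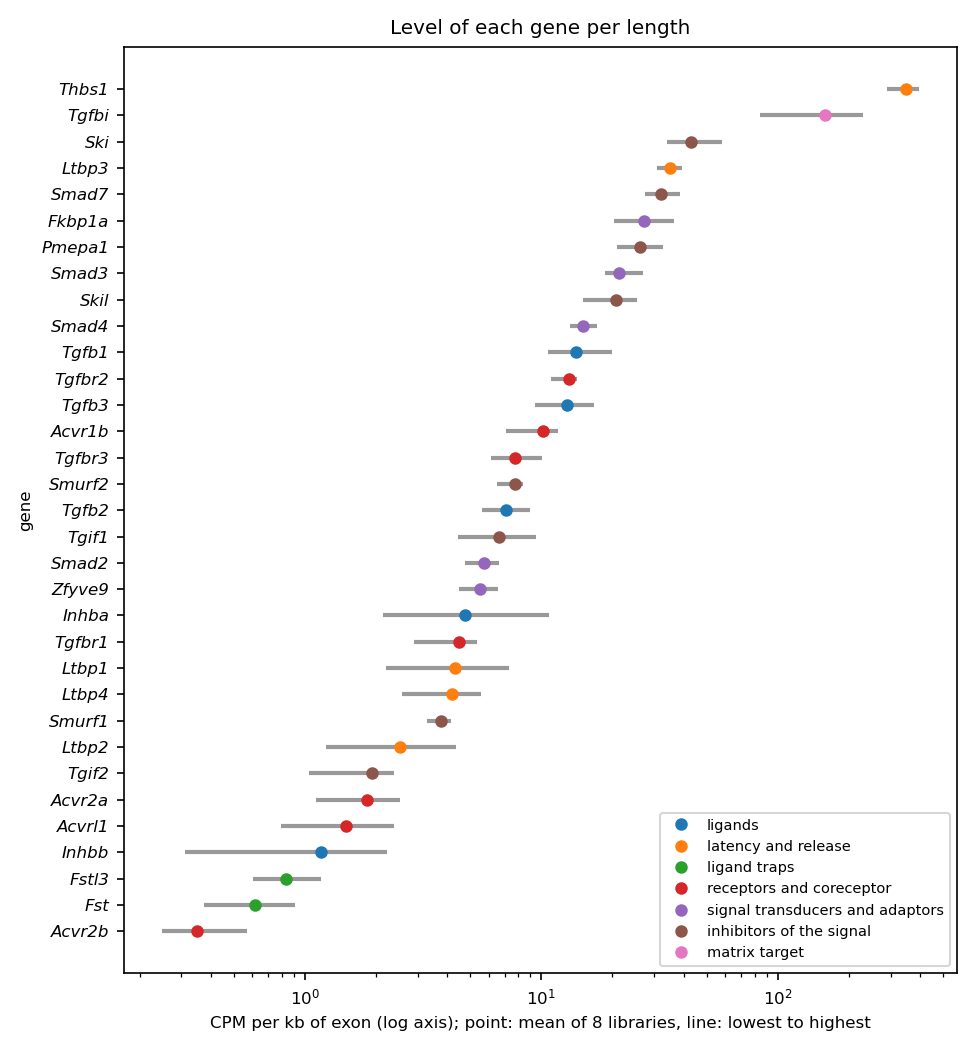
Level of each of the 33 genes per kb of exon, on a log axis. Points are means of the 8 libraries, lines run from the lowest to the highest library, and colours give the role; Thbs1 (348) and Tgfbi (159) lie apart from the rest, and Inhba and Inhbb have wide ranges for their level.

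Among the ligands, the 3 TGF-beta genes were at similar levels and the 2 activin subunits were lower and far more variable. Tgfb1 (chr7:25687002-25705077) averaged 14.0 CPM per kb, Tgfb3 12.8 (chr12:86056745-86079041) and Tgfb2 7.11 (chr1:186622792-186705989). Of the summed level of the 3 per length, Tgfb1 made up 34.8 to 48.9%, Tgfb3 30.5 to 42.2% and Tgfb2 15.9 to 25.7%, so Tgfb2 was the smallest share in each library.

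In CPM, Tgfb1 was at 76.5 and 54.0 in WT SSC, 75.8 and 56.6 in KO SSC, 63.8 and 75.1 in WT BCSP and 100.4 and 62.0 in KO BCSP. It was higher in library 1 than in library 2 of 3 groups, WT BCSP being the exception. Tgfb2 was at 37.0 and 44.4 CPM in WT SSC, 43.5 and 43.5 in KO SSC, 35.1 and 32.7 in WT BCSP and 41.5 and 51.9 in KO BCSP. The WT BCSP libraries were the lowest of the 8. Tgfb3 was at 32.0 and 38.8 CPM in WT SSC, 40.5 and 43.2 in KO SSC, 37.9 and 50.6 in WT BCSP and 56.6 and 47.7 in KO BCSP. WT SSC library 1 was the lowest and KO BCSP library 1 the highest.

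Inhba (chr13:16011851-16031621) encodes the subunit of activin A and Inhbb (chr1:119415465-119422248) that of activin B. Inhba was at 13.7 and 29.6 CPM in WT SSC, 15.005 and 49.7 in KO SSC, 21.6 and 19.0 in WT BCSP and 25.4 and 68.6 in KO BCSP. Library 2 was the higher in 3 of the 4 groups, and the 8 libraries covered a 5.01-fold range. Inhbb was at 3.08 and 5.67 CPM in WT SSC, 2.67 and 9.49 in KO SSC, 1.33 and 5.27 in WT BCSP and 3.00 and 9.36 in KO BCSP, a 7.14-fold range. Every library 2 was above every library 1. Per length, Inhba was 2.39 to 10.8 times the level of Inhbb, with the highest ratio in WT BCSP library 1.

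The genes of latency and release held the most abundant member and, within each cell type, the member with the lowest p-value for genotype. Thbs1 encodes thrombospondin 1, a matrix protein that can release TGF-beta from its latent complex, and was at 1764 to 2407 CPM with no order by group. A list of 6 platelet and megakaryocyte genes, cells rich in this protein, summed to 1.67 to 4.50 CPM, with Pf4 and Ppbp at 0 in WT BCSP library 2 and KO BCSP library 2. Ltbp3, which encodes 1 of the 4 latent TGF-beta binding proteins, was at 280 to 355 CPM and made up 69.6 to 83.02% of their summed level per length.

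The other 3 binding proteins were lower and followed the groups more closely. Ltbp1 (chr17:75005568-75392512) was at 31.8 and 23.5 CPM in WT SSC, 41.4 and 40.2 in KO SSC, 60.2 and 38.2 in WT BCSP and 78.1 and 56.3 in KO BCSP. Ltbp2 (chr12:84783212-84876532), whose product does not bind latent TGF-beta itself but belongs to elastic fibres, was at 10.01 and 15.2 CPM in WT SSC, 14.1 and 21.6 in KO SSC, 12.5 and 22.3 in WT BCSP and 34.6 and 35.6 in KO BCSP. Both KO BCSP libraries of Ltbp2 lay above the other 6. Ltbp4 (chr7:27305136-27337692) was at 16.7 and 20.4 CPM in WT SSC, 24.9 and 32.1 in KO SSC, 22.1 and 29.4 in WT BCSP and 36.1 and 34.5 in KO BCSP. In each cell type both KO libraries of Ltbp4 were above both WT libraries.

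Follistatin (Fst) and follistatin-like 3 (Fstl3), which trap activin outside the cell, were among the lowest members, at 1.71 to 4.18 and 1.48 to 2.85 CPM. Fst was at 2.45 and 1.71 CPM in WT SSC, 3.60 and 2.59 in KO SSC, 2.70 and 2.19 in WT BCSP and 4.18 and 3.20 in KO BCSP. Fstl3 was at 1.74 and 1.59 CPM in WT SSC, 1.77 and 1.48 in KO SSC, 2.30 and 2.85 in WT BCSP and 2.13 and 2.44 in KO BCSP. All 4 SSC libraries of Fstl3 were below all 4 BCSP libraries. Per length, the level of Inhba was 2.99 to 15.4 times that of its trap Fst.

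The receptor genes were led by Tgfbr2 (chr9:116084293-116175360), the type II receptor of TGF-beta, at 13.0 CPM per kb and 2.17 to 4.54 times the level of the type I receptor gene Tgfbr1 per length. Tgfbr2 was at 109 and 112 CPM in WT SSC, 111 and 89.7 in KO SSC, 116 and 108 in WT BCSP and 114 and 94.5 in KO BCSP. The lowest were the second KO libraries of either cell type. Tgfbr1 (chr4:47353222-47414931) was at 27.3 and 28.2 CPM in WT SSC, 28.4 and 32.4 in KO SSC, 32.8 and 18.9 in WT BCSP and 32.3 and 34.8 in KO BCSP, with WT BCSP library 2 standing below the other 7. Tgfbr3 (chr5:107106570-107289629), which encodes the coreceptor betaglycan, was at 41.8 and 57.8 CPM in WT SSC, 50.5 and 64.7 in KO SSC, 40.1 and 42.0 in WT BCSP and 43.8 and 65.6 in KO BCSP. Library 2 was the higher in each group.

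Of the activin receptors, the type I gene Acvr1b was at 31.3 to 52.2 CPM, the type II gene Acvr2a at 6.32 to 14.4 and the type II gene Acvr2b at 0.976 to 2.23. Acvr1b was at 43.0 and 41.0 CPM in WT SSC, 48.1 and 51.3 in KO SSC, 44.4 and 31.3 in WT BCSP and 48.7 and 52.2 in KO BCSP, so the lowest KO library was above the highest WT library. Acvr2a was at 11.1 and 9.70 CPM in WT SSC, 13.0 and 8.26 in KO SSC, 14.4 and 6.32 in WT BCSP and 11.8 and 8.60 in KO BCSP. Each library 2 was below each library 1.

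Acvrl1 (chr15:101128522-101145336), which encodes ALK1, a type I receptor known mainly from blood vessel endothelium, was at 4.28 and 3.39 CPM in WT SSC, 6.504 and 5.94 in KO SSC, 5.97 and 5.69 in WT BCSP and 10.2 and 8.94 in KO BCSP. In both cell types the KO libraries were above the WT libraries. Summed markers of endothelium were also higher in the KO libraries: 7 listed genes reached 1.10 and 1.15 CPM in WT SSC, 1.46 and 1.23 in KO SSC, 0.734 and 0.314 in WT BCSP and 1.92 and 3.07 in KO BCSP. Cdh5, a defining gene of endothelium, was at 0 in WT BCSP library 2 and at 0.0463 to 0.501 CPM in the other 7 libraries. The part of these cells in the level of Acvrl1 was not tested.

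The SMAD genes and Zfyve9 varied little, with a range of 1.46-fold or less over the 8 libraries, and Fkbp1a varied more, at 1.78-fold. Smad3 was at 103 to 149 CPM and, per length, 3.26 to 4.55 times the level of Smad2 (41.9 to 57.9 CPM). Smad4, the partner of both, was at 49.0 to 64.0 CPM. Zfyve9, whose product SARA presents SMAD2 and SMAD3 to the receptor, was at 29.1 to 42.4 CPM. Fkbp1a, whose product FKBP12 keeps the type I receptor inactive, was at 78.6 to 140.3 CPM.

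Smad2 was at 41.9 and 48.6 CPM in WT SSC, 53.3 and 55.0 in KO SSC, 48.2 and 44.2 in WT BCSP and 51.7 and 57.9 in KO BCSP. As for Acvr1b, no WT library reached a KO library, the highest WT value being 48.6 and the lowest KO value 51.7.

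Inhibitors of the signal ranged from Ski (190 to 324 CPM), Skil (145 to 246), Smad7 (124 to 175) and Pmepa1 (102 to 160) down to Tgif2 (3.98 to 9.16). The ligase genes Smurf1 (20.8 to 26.4 CPM) and Smurf2 (39.9 to 51.5) were steady, with a 1.27-fold and a 1.29-fold range over the 8 libraries. Tgif1 (chr17:70844205-70853546), a homeobox corepressor of SMAD2 and SMAD3, was at 24.9 and 25.8 CPM in WT SSC, 30.7 and 42.7 in KO SSC, 36.0 and 33.4 in WT BCSP and 53.5 and 50.9 in KO BCSP. Its KO libraries were above the WT libraries in both cell types, and WT SSC was the lowest group.

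Tgfbi (chr13:56609523-56639562), a secreted matrix protein gene named for its induction by TGF-beta, was at 679 and 866 CPM in WT SSC, 647 and 642 in KO SSC, 439 and 807 in WT BCSP and 319 and 386 in KO BCSP. KO BCSP was the lowest group, and the 2 WT BCSP libraries lay far from each other.

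**Figure D2:**
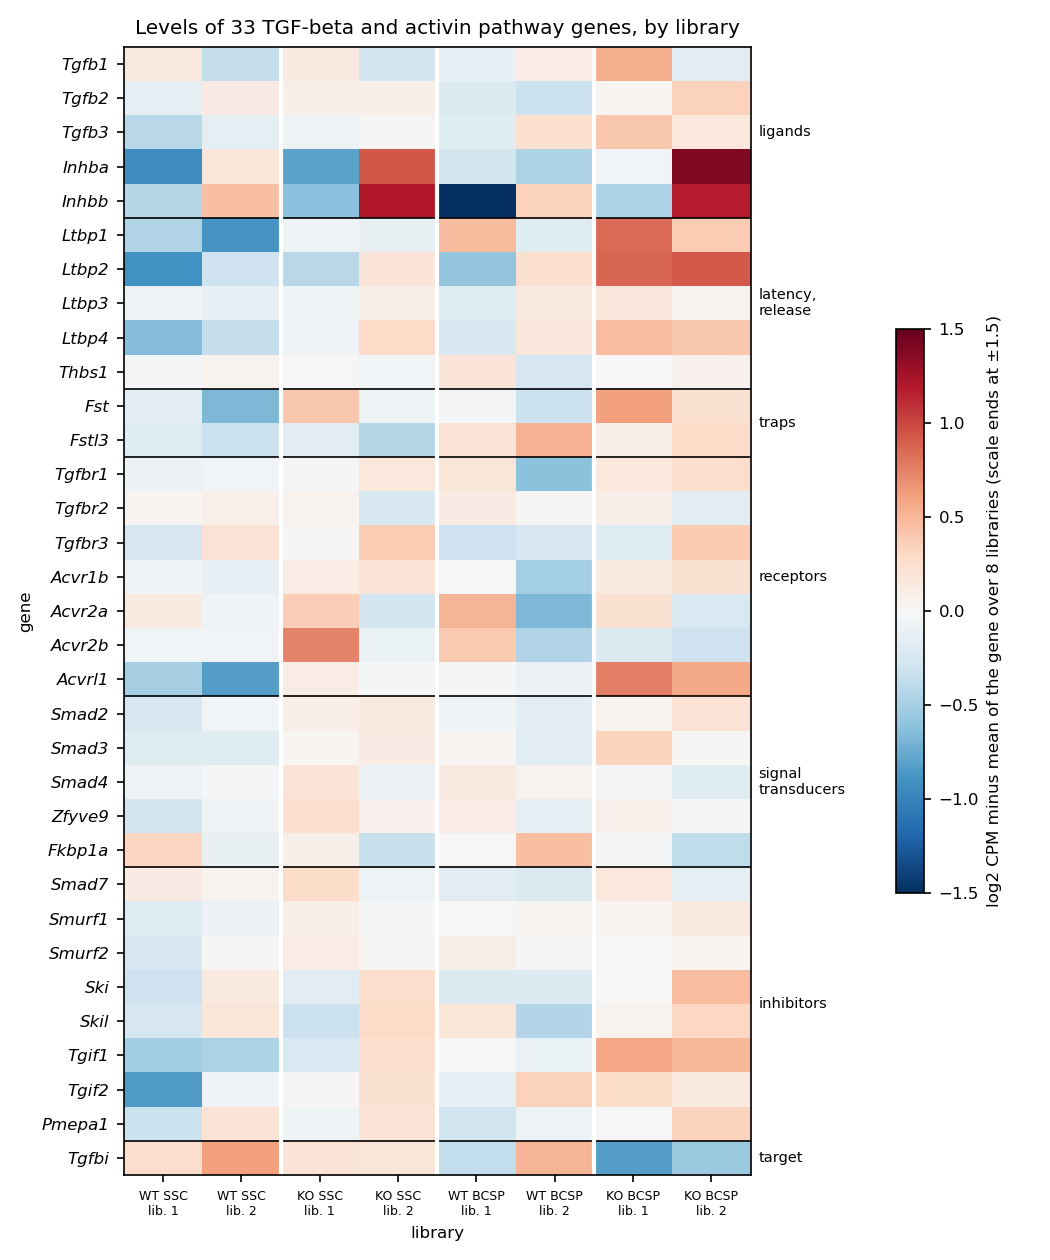
Level of each gene in each library, as log2 CPM minus the mean of that gene over the 8 libraries (red higher, blue lower, colour ends at ±1.5); rows are the 33 genes ordered by role and columns the 8 libraries. Inhba and Inhbb are red in library 2 of KO SSC and KO BCSP, while Ltbp1, Ltbp2, Ltbp4, Acvrl1 and Tgif1 are red in both KO BCSP libraries and Tgfbi is blue there.

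The comparison of KO with WT in SSC asks whether loss of Tet1 goes with a change of these genes in the stem cells. No member passed the edgeR quasi-likelihood test at a Benjamini-Hochberg adjusted p of 0.05, where 0.00451% of all tested genes did, and DESeq2 also called 0 members. All adjusted p-values of the members were 1. At an unadjusted p under 0.05 stood 3 members, against 1.2% of all genes, and all 3 were higher in KO (0.636% of all genes): Ltbp4 (log2 fold change 0.62 ± 0.24, SE), Acvrl1 (0.70 ± 0.28) and Tgif1 (0.53 ± 0.22). Next were Ltbp1 (0.56 ± 0.27), Tgif2 (0.53 ± 0.32) and Ltbp2 (0.50 ± 0.32). Without KO SSC library 2, 0 members had an unadjusted p under 0.05, with Ltbp4 at 0.41, Tgif1 at 0.26 and Ltbp2 at 0.14. Without WT SSC library 2, Tgif2 was at 0.98, Ltbp2 at 0.83 and Ltbp1 at 0.36, and without WT SSC library 1 they were at 0.18, 0.23 and 0.80. Ltbp2 was at 0.77 without KO SSC library 1. In bulk libraries such as these, more cells of a type and more RNA per cell cannot be told apart.

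Most members lay slightly higher in KO SSC. Of the 33, 28 were above 0 (51.3% of all tested genes were), with a median log2 fold change of 0.18 against 0.01 over all. Groups did not overlap for 15 members on the higher side (14.5% of all genes) and for 1, Tgfbi, on the lower side (13.1%). Without WT SSC library 2 the members' median was 0.32.

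By role, all 5 ligand genes were above 0 in SSC, with Inhba at 0.58 ± 0.67 and Inhbb at 0.48 ± 0.85, whose errors exceed their values, and Tgfb3 at 0.24 ± 0.23, Tgfb2 at 0.10 ± 0.22 and Tgfb1 at 0.02 ± 0.28. Of these 5, the sign of 4 depended on a library. Without KO SSC library 2, Inhba was at -0.55 and Inhbb at -0.73. Tgfb1 was at -0.21 without WT SSC library 2 or KO SSC library 1, and Tgfb2 at -0.03 without WT SSC library 1. The 5 genes of latency and release had a median of 0.50, the value of Ltbp2, and ran from Thbs1 at -0.03 to Ltbp4. The receptors had Tgfbr1 at 0.13 ± 0.26, Tgfbr2 at -0.14 ± 0.22 and Tgfbr3 at 0.21 ± 0.26. All 8 genes listed as inhibitors were above 0, between 0.03 (Smad7) and 0.53 (Tgif1), but the sign of several depended on a library. Without KO SSC library 2, Skil was at -0.32 and Ski at -0.11. Smad7 was at -0.17 without KO SSC library 1, and Pmepa1 at -0.12 without WT SSC library 1. Tgfbi, the matrix target, stood on the other side at -0.26 ± 0.31. Fkbp1a was also below 0, at -0.23 ± 0.27, and at 0.01 without WT SSC library 1. Its product holds the type I receptor inactive, but it is counted here with the transducers and adaptors, not the inhibitors.

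In BCSP the same contrast again called 0 of 33 members by edgeR (0.00451% of all genes) and 0 by DESeq2. The members' lowest edgeR adjusted p was 0.686. At an unadjusted p under 0.05 stood 4 members, against 6.19% of all genes, of which 3 were higher (3.23%) and 1 lower (2.96%): Ltbp2 at 1.01 ± 0.32, Tgfbi at -0.82 ± 0.31, Tgif1 at 0.59 ± 0.22 and Acvrl1 at 0.71 ± 0.28. Next were Tgfb2 (0.46 ± 0.22) and Ltbp4 (0.46 ± 0.24). The share of 4 in 33 is read against that 6.19%, or against 7.17% of genes of at least 1 CPM. Such p-values were therefore common in this contrast.

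The size of several of these differences depended on single libraries. Without WT BCSP library 2 Tgfbi was at -0.31 and Ltbp2 at 1.49, and without WT BCSP library 1 they were at -1.20 and 0.66 and Ltbp4 at 0.27. Without KO BCSP library 2 Tgfb2 was at 0.29. Without both BCSP libraries of round 2, Tgfbi was at -0.46, Tgfb2 at 0.25 and Ltbp4 at 0.71, and 2 members had an unadjusted p under 0.05, as they had without WT BCSP library 2 alone. Tgif1 (0.54 to 0.64) and Acvrl1 (0.63 to 0.81) moved less when any single BCSP library was left out.

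Over the list, 25 of 33 were above 0 in BCSP (50.5% of all genes), with a median of 0.25 against 0.01, and 21 were above 0 without both BCSP libraries of round 2. Groups did not overlap for 13 members on the higher side (16.9% of all genes) and for 3 on the lower side (16.4%), which were Smad4, Fkbp1a and Tgfbi. Among the ligands, Inhba was at 1.21 ± 0.68, Inhbb at 0.90 ± 0.85, Tgfb3 at 0.24 ± 0.23 and Tgfb1 at 0.23 ± 0.28. The receptor genes Tgfbr1, Tgfbr2 and Tgfbr3 were at 0.38 ± 0.26, -0.10 ± 0.22 and 0.42 ± 0.26. Without KO BCSP library 2 Inhbb was at -0.14, without KO BCSP library 1 Tgfb1 was at -0.14, and without both BCSP libraries of round 2 Tgfbr1 was at -0.02. The 5 transducer and adaptor genes had a median of 0.03. Without KO BCSP library 1 the median of all members was 0.15.

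**Figure D3:**
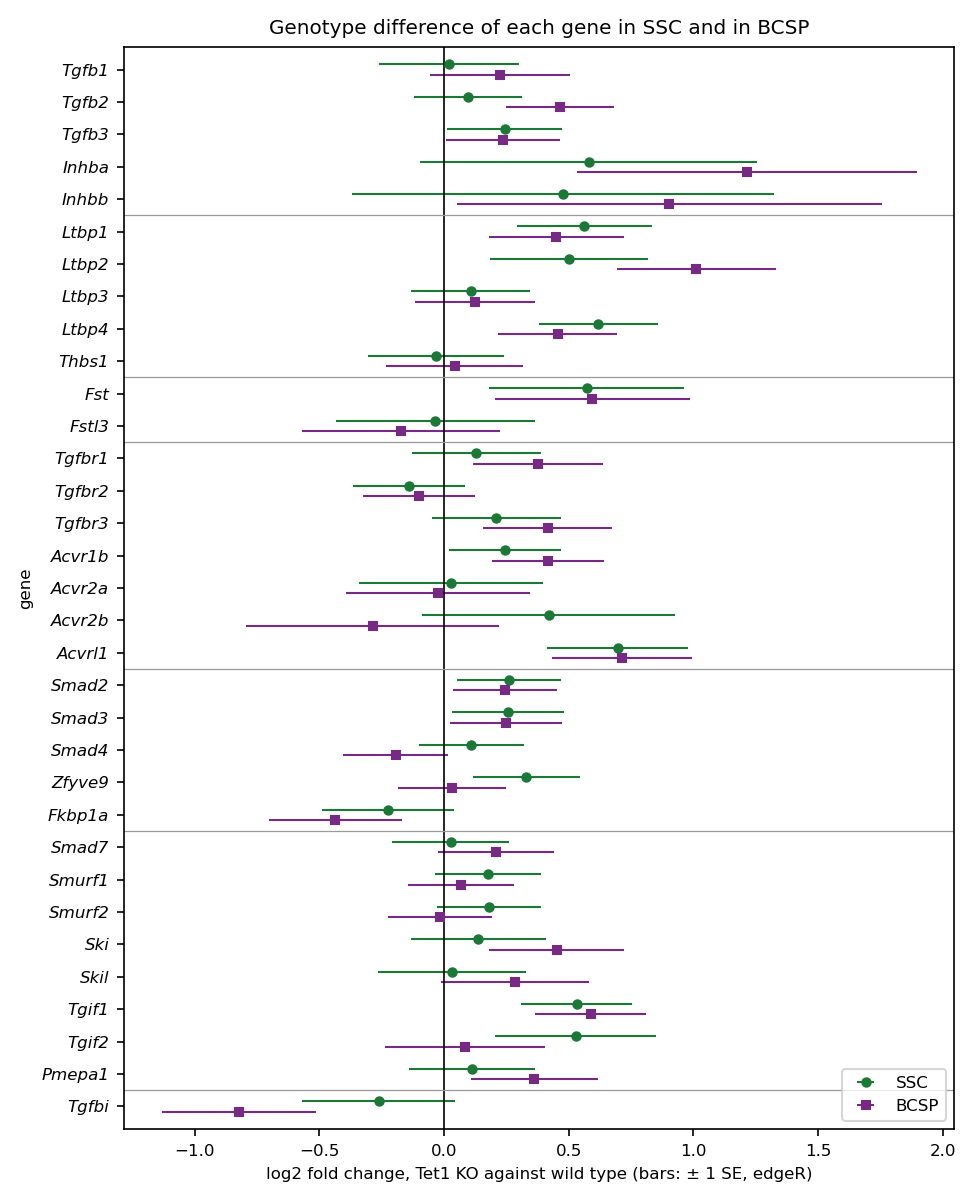
Log2 fold change of KO against WT for each of the 33 genes in SSC (green circles) and BCSP (purple squares), with bars of 1 SE from edgeR; rows are ordered by role. Most points lie right of 0, and many bars reach it. Among the bars that do not are those of Ltbp2, Ltbp4, Acvrl1 and Tgif1 in both cell types, with Ltbp2 at 1.01 in BCSP. Tgfbi lies left of 0 in both cell types. A bar of 1 SE that misses 0 is not a call.

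The difference between the genotype effects of SSC and BCSP was tested directly, as an interaction. By edgeR 0 of 33 members passed (0% of all genes), 0 had an unadjusted p under 0.05 (1.27% of all genes), and DESeq2 called 0. The lowest p-values were those of Tgfbi (0.56 ± 0.44, SSC minus BCSP), Tgfb2 (-0.37 ± 0.31), Ltbp2 (-0.51 ± 0.45), Smad4 (0.30 ± 0.30), Acvr2b (0.71 ± 0.72) and Zfyve9 (0.30 ± 0.30). For the core genes the differences were -0.20 ± 0.40 (Tgfb1), 0.01 ± 0.32 (Tgfb3), -0.63 ± 0.95 (Inhba), -0.43 ± 1.20 (Inhbb), -0.25 ± 0.37 (Tgfbr1), -0.04 ± 0.32 (Tgfbr2) and -0.21 ± 0.37 (Tgfbr3). With errors of this size, a difference between the cell types was not detectable, which does not show that the effects were alike.

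Taking both cell types in an additive model, 4 libraries against 4, Tgif1 and Acvrl1 had the lowest p-values for genotype. Tgif1 was at 0.56 ± 0.14 (edgeR adjusted p = 0.454) and Acvrl1 at 0.71 ± 0.18 (edgeR adjusted p = 0.461). No member passed by edgeR, as against 0.0135% of all genes. DESeq2, which called far more of all genes here than edgeR did, called 1 member, Acvrl1 (adjusted p = 0.0260). The numbers over all genes are given at the end. An unadjusted p under 0.05 was reached by 8 members, against 7.91% of all genes and 10.8% of genes of at least 1 CPM. Of these, 7 were higher in KO (3.95% of all genes) and 1 was lower (3.96%).

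Genes of the latent binding protein family made up 3 of those 8. Ltbp2 was at 0.76 ± 0.22, Ltbp4 at 0.54 ± 0.16 and Ltbp1 at 0.51 ± 0.18. Their edgeR adjusted p-values were 0.596, 0.596 and 0.613. Of these, the product of Ltbp2 does not bind latent TGF-beta itself. Fst (0.58 ± 0.25) and Acvr1b (0.33 ± 0.15) completed the higher side, and Tgfbi was at -0.54 ± 0.22 (edgeR adjusted p = 0.614). The model treats the SSC and BCSP libraries as independent samples, and whether both came from the same animals is not stated.

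Of the core genes, Inhba was at 0.90 ± 0.46, Inhbb at 0.69 ± 0.56, Tgfb2 at 0.28 ± 0.15, Tgfb3 at 0.24 ± 0.15 and Tgfb1 at 0.12 ± 0.19. The receptors Tgfbr1, Tgfbr2 and Tgfbr3 stood at 0.25 ± 0.17, -0.12 ± 0.14 and 0.31 ± 0.17. Of the 33 members, 28 were above 0 (51.6% of all genes), with a median of 0.24 against 0.02. The exceptions below 0 were Fstl3, Tgfbr2, Smad4, Fkbp1a and Tgfbi. For 2 members, Acvr1b and Smad2, the 4 KO libraries did not overlap the 4 WT libraries, both higher in KO (2.13% of all genes), and for 0 members did they lie apart on the lower side (2.25%).

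The round number was next used only to line libraries up, with no test, since nothing in the labels says that it pairs them. Set side by side within round and cell type, the KO library was above the WT library in 4 of 4 such pairs for 14 of the 33 genes (42.4%), as it was for 10.6% of all tested genes and 11.7% of genes of at least 1 CPM. The 14 were Inhba, Ltbp1, Ltbp2, Ltbp4, Fst, Tgfbr3, Acvr1b, Acvrl1, Smad2, Smad3, Smurf1, Ski, Tgif1 and Pmepa1. It was below in 4 of 4 pairs for Fkbp1a and Tgfbi (9.95% of all genes). With the trend on exon length taken off each library, the higher count was 16 of 33 (13% of all genes). Without the BCSP pair of round 2 it was 17 of 33 in the remaining 3 pairs (15.8% of all genes).

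Within each round and cell type the members' median difference was 0.23 (SSC, round 1), 0.12 (SSC, round 2), 0.21 (BCSP, round 1) and 0.32 (BCSP, round 2), with 28, 23, 21 and 24 of 33 above 0. Over all genes the percentage above 0 was 48.9 to 50.7% in these 4 pairs. For Tgif1 the differences in the 4 pairs were 0.30, 0.73, 0.57 and 0.61, and for Acvrl1 they were 0.60, 0.80, 0.77 and 0.65. Tgfbi gave -0.07, -0.43, -0.46 and -1.07, each below 0 but of very unequal size. Inhba gave 0.13, 0.75, 0.23 and 1.86, small in both pairs of round 1 and large in those of round 2.

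Genes of the sex chromosomes also moved with genotype. Y-linked Ddx3y was at 23.2 to 39.7 CPM in WT and 62.1 to 92.2 in KO, and Xist at 277 to 621 CPM in WT and 75.0 to 291 in KO. The part of a differing mix of sexes in the members' values was not tested.

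**Figure D4:**
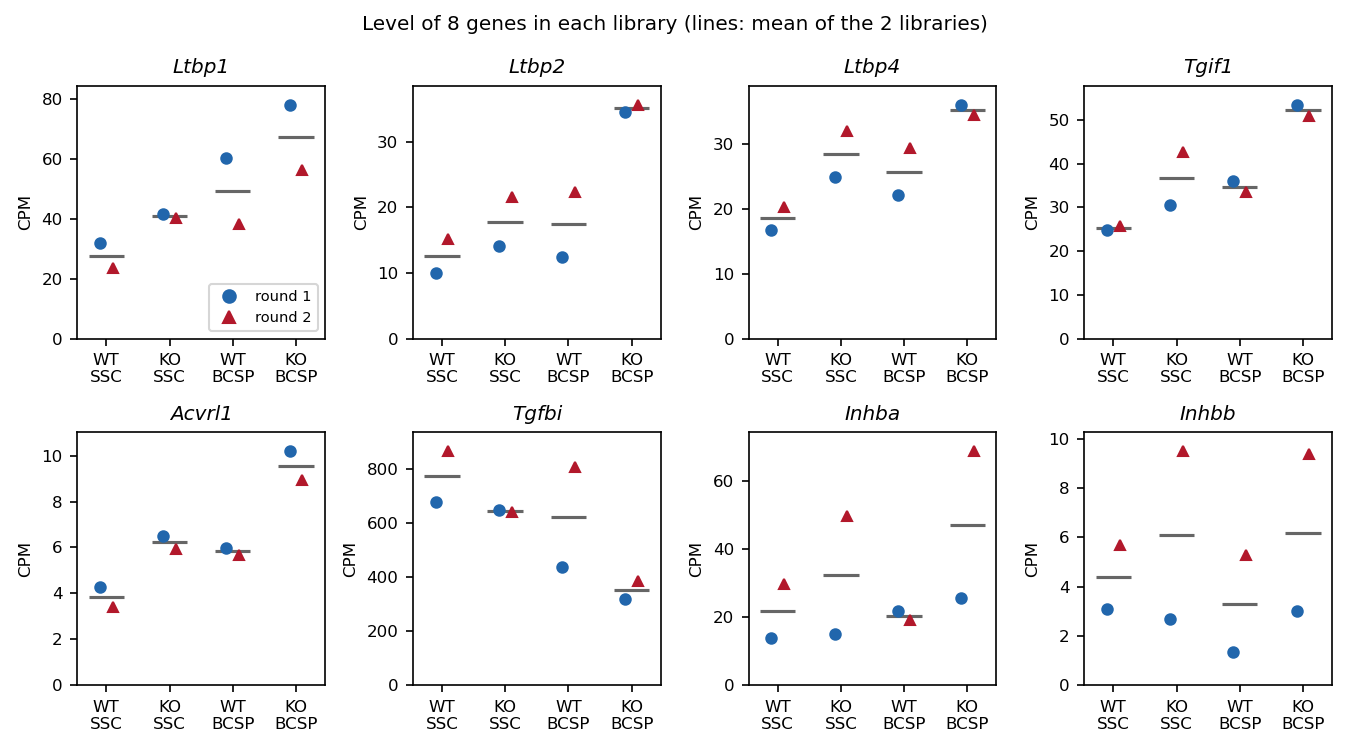
Level in CPM of 8 genes in each library, by group on the horizontal axis, with circles for round 1, triangles for round 2 and a line at the mean of each group's 2 libraries; every vertical axis starts at 0. Ltbp1, Ltbp4, Acvrl1 and Tgif1 have their lowest mean in WT SSC and their highest in KO BCSP, Tgfbi has its lowest mean in KO BCSP, and for Inhbb all triangles lie above all circles.

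The cell types were compared next, SSC against BCSP, to show which pathway genes accompany the step from stem cell to progenitor. In WT, edgeR called 0 members (0.00451% of all genes; DESeq2 0), and 1 member, Ltbp1, had an unadjusted p under 0.05 (2.48% of all genes) at -0.83 ± 0.27, lower in SSC. Without WT BCSP library 1 it was at -0.46 with an unadjusted edgeR p of 0.117. The next were Acvrl1 (-0.60 ± 0.28), Tgif1 (-0.45 ± 0.22), Ltbp4 (-0.47 ± 0.24), Tgif2 (-0.53 ± 0.32) and Fstl3 (-0.63 ± 0.40), also lower in SSC. Without both BCSP libraries of round 2 Ltbp4 was at -0.25 and Tgif2 at -0.26, and Tgif2 was at -0.18 without WT SSC library 1 and -0.98 without WT SSC library 2. The edgeR adjusted p of each was 1. Groups did not overlap for 2 members higher in SSC (14.2% of all genes), Tgfb2 and Smad7, and for 8 lower (13%). Of the 33, 13 were above 0 (49.3% of all genes).

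In KO, edgeR again called 0 members (0.00451% of all genes; DESeq2 0), while 5 had an unadjusted p under 0.05 (1.53% of all genes), 4 of them lower in SSC (0.641%) and 1 higher (0.885%). Ltbp2 was at -0.98 ± 0.32, Tgfbi at 0.87 ± 0.31, Ltbp1 at -0.72 ± 0.27, Tgif1 at -0.51 ± 0.22 and Acvrl1 at -0.62 ± 0.28, and Tgfb3 followed at -0.32 ± 0.23. That count was 1 without KO SSC library 1, where Tgif1 was at -0.29, and 1 without KO BCSP library 1, where Ltbp1 was at -0.47 and Tgfb3 at -0.19. Tgif1 was at -0.78 without KO SSC library 2. The edgeR adjusted p of each was 1. Groups did not overlap for 2 members higher in SSC, Acvr2b and Tgfbi (13.1% of all genes), and for 7 lower (10.9%). Of the 33, 9 were above 0 (51.9% of all genes), and 14 without both BCSP libraries of round 2, without KO BCSP library 2 or without KO SSC library 1.

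For the ligand genes and the 3 TGF-beta receptor genes the differences between the cell types ran from -0.54 (Inhba in KO) to 0.40 (Inhbb in WT). In WT and KO, respectively, the values were -0.09 ± 0.28 and -0.29 ± 0.28 for Tgfb1, 0.27 ± 0.22 and -0.10 ± 0.22 for Tgfb2, 0.09 ± 0.67 and -0.54 ± 0.67 for Inhba, and 0.40 ± 0.85 and -0.02 ± 0.84 for Inhbb. Tgfb3 was at -0.32 ± 0.23 in WT. Tgfbr1 was at 0.10 ± 0.26 and -0.14 ± 0.26, Tgfbr2 at -0.02 ± 0.22 and -0.06 ± 0.22, and Tgfbr3 at 0.28 ± 0.26 and 0.07 ± 0.26. None of these 8 genes had an unadjusted p under 0.05 by edgeR in either genotype.

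Over both genotypes the latent binding protein gene Ltbp1 differed most, at 34.2 ± 8.34 CPM in SSC and 58.2 ± 16.4 in BCSP (SD, n = 4), a log2 difference of -0.78 ± 0.18 (edgeR adjusted p = 0.597). No member passed by edgeR, against 0.00451% of all genes, which is Eng alone. DESeq2, which here too called far more of all genes than edgeR did, called 1 member, Ltbp1 (adjusted p = 0.0495). Without both BCSP libraries of round 2, Ltbp1 was at -1.03 by edgeR.

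An unadjusted p under 0.05 was reached by 8 members (3.71% of all genes, 4.5% of those of at least 1 CPM). Of these, 7 were lower in SSC (1.83% of all genes) and 1 was higher (1.88%). Lower in SSC were Ltbp1, Acvrl1 (-0.61 ± 0.18), Tgif1 (-0.48 ± 0.14), Ltbp2 (-0.72 ± 0.22), Ltbp4 (-0.39 ± 0.16), Fstl3 (-0.56 ± 0.26) and Tgfb3 (-0.32 ± 0.15), and higher was Tgfbi (0.59 ± 0.22). Fstl3 was the 1 member whose 4 SSC libraries lay wholly below the 4 BCSP libraries (1.05% of all genes), and 0 lay wholly above (1.48%). Of the list, 10 of 33 were above 0 and 23 below (51.8% of all genes were above), with a median of -0.04 against 0.01. The other core genes were at -0.19 ± 0.19 (Tgfb1), 0.08 ± 0.15 (Tgfb2), -0.22 ± 0.46 (Inhba), 0.19 ± 0.56 (Inhbb), -0.02 ± 0.17 (Tgfbr1), -0.04 ± 0.14 (Tgfbr2) and 0.18 ± 0.17 (Tgfbr3).

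Compared within round and genotype, 8 genes were lower in SSC in 4 of 4 pairs (24.2% of members, 6.62% of all genes): Tgfb3, Ltbp1, Ltbp2, Ltbp4, Fst, Fstl3, Acvrl1 and Tgif1. Smad7 and Tgfbi were higher in 4 of 4 (6.06% of members, 7.71% of all genes). The pair differences of Ltbp1 were -0.92 and -0.70 in WT and -0.91 and -0.49 in KO. For Acvrl1 they were -0.48 and -0.74 in WT and -0.65 and -0.59 in KO.

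The genotype and cell type contrasts are computed from the same 8 libraries, so the WT SSC libraries enter both on one side and the KO BCSP libraries on the other. For this reason the group means of the genes named above are given side by side, with no test. In mean CPM, WT SSC and KO BCSP stood at 27.6 and 67.2 for Ltbp1, 12.6 and 35.1 for Ltbp2, 18.5 and 35.3 for Ltbp4, 25.3 and 52.2 for Tgif1, and 3.84 and 9.57 for Acvrl1. WT BCSP and KO SSC lay between them for each of these 5 genes. The genes had been named as higher in KO in each cell type and lower in SSC in each genotype. That fixes this order of the means, so it is no further result.

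Between rounds, which number the 2 libraries of every group, the activin subunit genes differed most. Inhbb rose from 2.52 ± 0.813 CPM in the 4 libraries of round 1 to 7.45 ± 2.29 in those of round 2 (SD, n = 4), a log2 difference of 1.58 ± 0.23 with group as a term (edgeR adjusted p = 0.00328). It was the 1 member of 33 that passed, where 1.76% of all genes did. Without each single library in turn it was at 1.45 to 1.82. A group left with 1 library tells nothing about round in this model. Leaving out either library of a group was therefore nearly the same fit. Its 4 libraries of round 2 lay wholly above those of round 1 (4.01% of all genes).

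Inhba was at 18.9 ± 5.54 and 41.7 ± 22.0 CPM, a difference of 1.03 ± 0.25. It was not called by edgeR (adjusted p = 0.0566) and was called by DESeq2 (adjusted p = 0.00267), which also called more of all genes between rounds. In single groups the round difference of Inhba was 1.11 in WT SSC, 1.73 in KO SSC, -0.19 in WT BCSP and 1.43 in KO BCSP. For Inhbb it was 0.88, 1.82, 1.98 and 1.64. WT BCSP was thus the group in which the activin genes parted.

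For round, 8 of 33 members had an unadjusted p under 0.05, against 11.4% of all genes and 16% of genes of at least 1 CPM. Besides Inhbb and Inhba these were Acvr2a (-0.62 ± 0.19), Ltbp2 (0.52 ± 0.17) and Ltbp1 (-0.40 ± 0.15). The rest were Tgfbr3 (0.37 ± 0.15), Pmepa1 (0.34 ± 0.14) and Ski (0.34 ± 0.16). Acvr2a, an activin receptor gene, was wholly lower in round 2 (3.61% of all genes), opposite in direction to the activin subunits, with an edgeR adjusted p of 0.156. TGF-beta ligands and their receptors were at -0.35 ± 0.17 (Tgfb1), 0.12 ± 0.15 (Tgfb2), 0.14 ± 0.16 (Tgfb3), -0.11 ± 0.18 (Tgfbr1) and -0.16 ± 0.15 (Tgfbr2). Over the list 18 of 33 were above 0 (50.1% of all genes), with a median of 0.03. The labels give the rounds a number and nothing more. Markers of blood cells moved with round as well. A list of 6 neutrophil genes summed to 178, 11.2, 12.9 and 48.3 CPM in library 1 of WT SSC, KO SSC, WT BCSP and KO BCSP, and to 0.131, 1.40, 0.286 and 1.29 in library 2, with Elane, a defining gene, at 0 in 3 of those 4. The 6 erythroid genes summed to 36.9, 4.69, 10.6 and 15.5 CPM in library 1 and 3.04, 2.45, 5.01 and 4.23 in library 2. In each group both sums were lower in round 2. The part of these cells in the members' round differences was not tested.

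A wider list of 80 other genes of the pathway (related ligands, activating integrins, SMAD cofactors, ubiquitin enzymes and known targets) was looked at in the same fits, of which 78 were in the table and 73 were tested. For genotype, 0 of 73 passed by edgeR in SSC, in BCSP or over both, and 0, 2 and 8 had an unadjusted p under 0.05, against 1.2, 6.19 and 7.91% of all genes. Over both cell types 44 of 73 were above 0 (51.6% of all genes), with a median of 0.09 beside the members' 0.24.

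Over both cell types the wider list was led by Postn, the gene of periostin, a matrix protein of fibrous tissue, at 0.56 ± 0.18, Cdkn2b, a cell cycle inhibitor gene induced by TGF-beta, at 0.85 ± 0.29, and Fbn2, the gene of fibrillin 2, a microfibril protein, at 0.57 ± 0.22. Their edgeR adjusted p-values were 0.608, 0.611 and 0.614. Postn was at 26.2 and 39.6 CPM in WT SSC, 45.1 and 51.9 in KO SSC, 41.9 and 45.8 in WT BCSP and 49.4 and 80.5 in KO BCSP. The lowest in SSC alone were Postn (0.56 ± 0.28), Inha (0.58 ± 0.29) and Tgfb1i1 (0.39 ± 0.22), and in BCSP alone the coactivator genes Crebbp (0.68 ± 0.28) and Ep300 (0.65 ± 0.30) with Cdkn2b (0.96 ± 0.44). In the interaction they were Mstn, at 0 to 0.244 CPM over the 8 libraries, Crebbp (-0.52 ± 0.39) and Tsc22d1 (0.42 ± 0.38).

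Between cell types 1 of the 73 passed over both genotypes by edgeR (0.00451% of all genes), Eng, at -3.84 ± 0.21 (adjusted p = 1.26e-06), the gene of the sorted protein. It also passed within WT (-3.90 ± 0.31) and within KO (-3.78 ± 0.31). Dcn, the gene of decorin, a matrix proteoglycan that binds TGF-beta, was at -0.58 ± 0.16 over both, -0.59 ± 0.26 in WT and -0.56 ± 0.26 in KO, and Adamtsl2 at -0.84 ± 0.25, neither of them called. Fstl1 in WT stood at -0.61 ± 0.27.

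Between rounds 3 of the 73 passed by edgeR, against 1.76% of all genes. Thsd4, whose product assembles fibrillin fibres, was at 1.10 ± 0.17 (adjusted p = 0.00451), and Lrrc32, whose product GARP holds latent TGF-beta at the cell surface, at 0.87 ± 0.18 (adjusted p = 0.0266). Ccn2, the connective tissue growth factor gene and a known target, was lower in round 2 at -0.69 ± 0.16 (adjusted p = 0.0378). Ccn2 was at 1776 to 1892 CPM in the 4 libraries of round 1 and 1071 to 1225 in those of round 2.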

How the data were processed

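Bulk RNA of 8 libraries was sequenced as paired reads of 150 bases, per the labels. The deposited table gives counts per gene, as whole numbers. The submitters' processing notes name the build mm10 and the programs STAR, featureCounts and DESeq2, without versions or roles. The table is itself named for htseq, so the counting program is not settled, and neither the annotation release nor the strand of counting is given in the sources used here. Reads of overlapping antisense genes can therefore not be told apart from those of a member. Columns that read SCC or BCP were taken for SSC and BCSP, the sole titles they can match.

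Counts were filtered with filterByExpr (minimum count 10, minimum total 15), scaled by TMM (factors 0.854 to 1.06) and fitted with edgeR 4.0.16 in R 4.3.3 (limma 3.58.1, and version 1.17.8 of data.table), by a robust quasi-likelihood model over all 8 libraries. It had 1 mean per group, or cell type and genotype as additive terms for contrasts over both, or group and round for the rounds. P-values were adjusted by Benjamini-Hochberg over 22153 genes at 0.05. Log2 CPM of single libraries used a prior count of 2. Exon lengths and gene positions are from GENCODE M21 (GRCm38, the build mm10), matched for 33 of 33 members. Start windows are from RefSeq (GRCm38.p6), 250 bases before a start, cut where the printed stretch would have entered the gene. The scripts were tested on simulated data.

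The 33 members, the wider list and the markers were chosen with earlier results of these data known. Full statistics were given, in each comparison, for the 6 members of lowest unadjusted p, any with an adjusted p under 0.05, the TGF-beta and activin ligand genes and the 3 TGF-beta receptor genes. From the wider list those past the threshold and the 3 of lowest p were named. Alternatives were RLE scaling, DESeq2 1.42.0, no filter, the round as a block, an exon length offset, leaving out each library, and leaving out both BCSP libraries of round 2. The removal of the length trend and of those 2 libraries from the counts of pairs was chosen after seeing the data.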

Additional observations from a re-analysis of the deposited data

How the results depend on the processing

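Each of the 33 members was recomputed under every alternative that gives a value. Of 3663 recomputed values, 3326 kept their direction and their side of the threshold, 38 passed it only under the alternative, 299 changed sign without passing in either fit, and 0 lost a call. Among the 6 members of lowest unadjusted p in each comparison, 0 of 666 values changed sign. Those members were picked by low p in these same libraries, so that count is no measure of stability. In SSC 14 of the 33 members changed sign under at least 1 alternative, in BCSP 13, over both cell types 7, in the interaction 22, between cell types 17 or 18 and between rounds 10. Where leaving out a library leaves 1 in a group, the fit assumes that it varies like the other groups. For round such a group tells nothing, so leaving out either library of a group gives nearly the same fit. With DESeq2, 1 member passed for genotype over both cell types (Acvrl1), 1 for cell type over both genotypes (Ltbp1) and 2 for round (Inhbb and Inhba). Without a filter on low counts these numbers were 2 (Ltbp2 and Inhba), 2 (Ltbp1 and Ltbp2) and 3 (Inhbb, Inhba and Acvr2a). Without both BCSP libraries of round 2 they were 0, 1 (Ltbp1) and 9. Leaving out 1 library at a time gave 1 to 11 members past the threshold for round, with 11 without WT BCSP library 1 and 11 without WT BCSP library 2. Of all genes, 18.3% and 17.6% passed in those 2 fits, and 8.82% without the BCSP pair of round 2, against 1.76% with all libraries. In those fits the median prior degrees of freedom of edgeR were 8517 and 279.8, against 10.89 with all libraries, and Inf with no filter; the cause was not tested. In the other comparisons 0 members passed under each library left out.

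The round number was shared across groups, but round differences correlated between groups at 0.0234 to 0.240, above 0.1 in 4 of 6 pairs of groups, so the numbers were not taken to pair the samples. With the round as a block (pairing by number), 0 members passed in any genotype or cell type comparison, the lowest adjusted p being 0.138. Counts of members at an unadjusted p under 0.05 in the alternative fits, here and above, come without the share of all genes. They cannot be read as changes particular to the members. In BCSP this count went from 4 to 8 with the block and to 7 with the length offset. In SSC against BCSP in WT it went from 1 to 3 and to 4. Leaving out single libraries moved these counts from 3 to as low as 0 for genotype in SSC, from 4 to between 2 and 7 in BCSP, from 8 to as low as 5 over both cell types (without KO BCSP library 1), from 1 to as high as 3 for cell type in WT, from 5 to as low as 1 in KO, from 8 to as low as 4 over both genotypes (without KO BCSP library 1) and from 8 to between 4 and 13 for round.

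Over all genes the counts past the threshold were far less stable. In SSC they went from 1 to 9 with DESeq2, 4 with no filter, 2 with the block and 0 without any single SSC library. In BCSP they went from 1 to 20, 38 and 3, and to 0 without both BCSP libraries of round 2. Over both cell types they went from 3 to 103, 234 and 28, and to 1 with the length offset or without most single libraries. For cell type over both genotypes they went from 1 to 39, 66 and 2, and to 10 without the BCSP pair of round 2. Within WT they were 2 (DESeq2), 5 (no filter) and 3 (block), and within KO 2 under each. The interaction had 2 with the block. For round, 390 became 937 (DESeq2), 861 (no filter), 701 (length offset), 118 to 4063 without 1 library and 1954 without the BCSP pair of round 2.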
